A study of Mus musculus with 32 samples.

Results

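The 9 genes described here, Pax2, Pax8, Lhx1, Osr1, Six2, Eya1, Sall1, Wt1 and Emx2, encode transcription regulators that build the embryonic kidney. They were taken by gene symbol from a table of DNA methylation signal that holds 27179 genes, and all 9 were found and passed a filter on low values that kept 25982 genes. The assay was MeDIP-seq. It sequences the DNA fragments that an antibody captures by their methylated cytosine (5mC), so a higher value means more captured fragments from a gene. The organs were mouse kidney, brain, heart and liver, each harvested and then either fixed in 10% formalin and embedded in paraffin (FFPE) or flash-frozen. Strain, sex and age of the mice are not stated in the labels, and no genetic change or drug is named.

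The table has 8 columns, 1 for each organ and preservation, each called a library here, and no column repeats a group. The labels list 2 antibody samples and 2 unselected Input samples in each of these groups. Whether a column is 1 sample or a pool is not stated, and the column names do not say antibody or Input. They were read as 5mC from the name under which the table was deposited, and all results rest on this reading. Input values were not analysed here, so a value can also carry copy number and how readily a stretch of DNA yields reads. A column mixes all cells of an organ, so fewer methylated cells and less methylation per cell cannot be told apart. Levels are given as CPM, the read count scaled to a common library size with the authors' own factors. Because the length counted per gene is not stated, levels are compared between libraries of 1 gene and never between genes.

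The kidney forms from intermediate mesoderm, where Osr1, Pax2, Pax8 and Lhx1 act early. Six2, Eya1, Sall1 and Wt1 then work in the nephron progenitors, the cells that give rise to the filtering units, and Emx2 works in the ureteric bud that branches into the collecting ducts. Many such developmental regulators start in stretches rich in CG dinucleotides, which are the main sites of 5mC in mammals and are often kept free of it, while methylation inside gene bodies can go along with transcription. A gene-wide read count cannot separate these positions.

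Libraries held 2164158 to 3699218 reads on genes, and the median gene had 36 to 63. FFPE and frozen kidney correlated at 0.886 over all genes, against 0.924 to 0.932 for the FFPE and frozen pair of each other organ. FFPE kidney reached 0.929 with FFPE heart, while frozen kidney reached at most 0.894, with frozen liver. Frozen kidney had 0 reads on 2999 genes, against 880 to 2380 in the other libraries. Marker genes of the organs were read from lists drawn up with earlier results of these data known. Their counts are therefore no independent check of the organ labels. Liver was lower for 11 of 12 hepatocyte genes (7.42% of all genes were) and heart for 3 of 12 cardiomyocyte genes (1.97%). Brain was lower for 5 of 12 neuronal genes (12.8%). Each organ was compared by limma against the mean of the other organs. Brain was also higher for 1 of the 12 neuronal genes (8.61% of all genes), and none of the hepatocyte or cardiomyocyte genes was called higher in its organ. Kidney was lower for 0 and higher for 0 of 24 genes of the kidney tubule by the same test (0.566% and 0.897% of all genes), with a median log2 difference of -0.15 against -0.02 over all genes. Of these 24 genes 4 had an unadjusted p under 0.05, where 18.6% of all genes did. On this list the kidney columns did not stand apart, so it gives no check of their label either.

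Differences between organs in these data were known when the 9 genes were chosen. Their organ values are given as a description with no test. Over the 9 genes, kidney was above the mean of the other organs for 4 and below it for 5, with a median log2 difference of -0.18, against -0.02 over all genes tested. The median had the opposite sign within either preservation alone, at 0.54 in FFPE tissue and 0.11 in frozen tissue. Both kidney libraries lay above all 6 others for 1 gene, Pax2, where 3.53% of all genes do so. Both lay below all 6 others for 1 gene, Pax8, where 4.38% do so. For Pax8 the frozen kidney library was within counting error of the others.

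**Figure D1:**
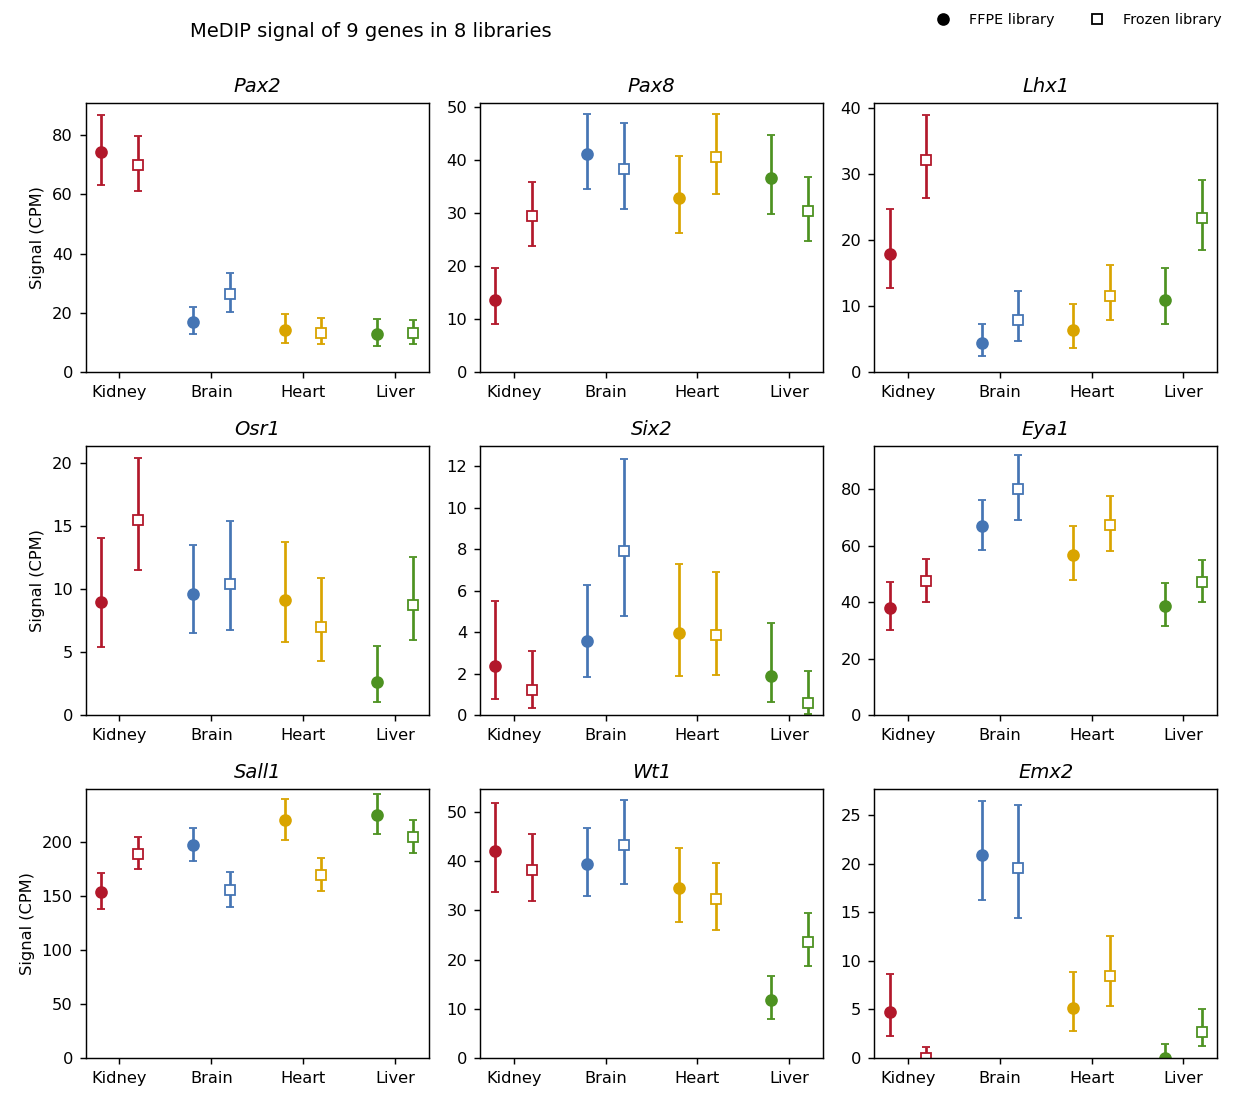
Signal of each of the 9 genes, in CPM on a linear axis from 0, in the FFPE (filled circles) and frozen (open squares) libraries of kidney, brain, heart and liver; bars are exact Poisson 95% intervals, which cover counting error only. The 2 kidney libraries stand highest for Pax2, at 74.2 and 69.8 CPM, and lowest for Pax8, at 13.7 and 29.5 CPM. For Pax8 the bar of frozen kidney overlaps the bars of the other organs.

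Pax2 and Pax8 encode closely related paired-box factors that commit mesoderm to the kidney fate, and Pax2 stays on in the ureteric bud and the forming nephron. Pax2 (Entrez 18504, chromosome 19, 44746601 to 44838269 in GRCm38.p6) had 74.2 CPM in FFPE and 69.8 CPM in frozen kidney. The other organs had 17.0 and 26.3 CPM in FFPE and frozen brain, 14.3 and 13.3 CPM in heart, and 12.9 and 13.1 CPM in liver. The lower end of the 95% counting interval in kidney, 61.1 CPM, was above the upper end in every other library, which was at most 33.6 CPM. Behind these levels stood 157 and 230 reads in FFPE and frozen kidney, and 34 to 63 reads in the others. The log2 difference of kidney from the mean of the other organs was 2.19, a 4.57-fold higher signal, with 2.33 in FFPE and 2.06 in frozen tissue. That difference stood at percentile 99.7 of all genes tested. Brain came next in both preservations, but only frozen brain stood apart from heart and liver by counting error. The FFPE brain interval, 12.9 to 22.1 CPM, overlapped those of heart and liver, which also overlapped each other.

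Pax2 has several annotated starts, and their CG content differs. The 250 bases before the outermost start (chr19:44746351-44746600) and before the innermost of the 3 listed (chr19:44756656-44756905), both on the plus strand, are shown because the second holds many more CG than the first. Capitals mark CG, the dinucleotide on which most 5mC lies and which reads the same on both strands.

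Pax2 outermost start: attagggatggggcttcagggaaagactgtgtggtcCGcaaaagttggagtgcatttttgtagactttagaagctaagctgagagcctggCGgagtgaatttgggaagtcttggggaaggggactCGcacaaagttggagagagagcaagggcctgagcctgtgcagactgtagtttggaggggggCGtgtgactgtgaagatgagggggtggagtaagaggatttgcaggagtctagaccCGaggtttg

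Pax2 innermost start: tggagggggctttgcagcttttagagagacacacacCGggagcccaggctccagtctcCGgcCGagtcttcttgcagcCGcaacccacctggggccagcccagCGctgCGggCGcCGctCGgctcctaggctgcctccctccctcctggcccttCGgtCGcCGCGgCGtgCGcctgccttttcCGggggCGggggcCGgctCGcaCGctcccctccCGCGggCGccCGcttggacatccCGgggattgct

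In the 300 bases around these starts (250 before and 50 after), the outermost held 7 CG and the innermost 30. Of 32851 listed mouse promoters, 94.6% held at least 1 CG and the median held 7. At least 7 CG were found in 52.1% of promoters and at least 30 in 11.7%. The third Pax2 start, between them, had 23 CG. The table gives 1 value for the whole gene, so the position of the kidney signal relative to these starts is not resolved.

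Pax8 (Entrez 18510, chromosome 2, 24420551 to 24475599) went the other way. It had 13.7 CPM in FFPE and 29.5 CPM in frozen kidney. Brain had 41.2 and 38.3 CPM in its FFPE and frozen library, heart 33.0 and 40.7 CPM, and liver 36.7 and 30.4 CPM. Kidney was the lowest organ in each preservation, but only FFPE kidney stood apart by counting error. Its interval, 9.18 to 19.7 CPM from 29 reads, lay below those of every library of the other organs. The frozen kidney interval, 23.9 to 35.9 CPM, overlapped all of theirs, and frozen liver was nearest, at 97 against 104 reads. The log2 difference from the other organs was -0.85 over both preservations, -1.41 in FFPE and -0.30 in frozen tissue, so most of it came from the FFPE kidney library. Brain, heart and liver overlapped in their counting intervals. Pax8 starts on the minus strand, with 7 CG in the 300 bases around its start, the number in the median promoter. The 250 bases before it (chr2:24475600-24475849) are shown as the counterpart to the Pax2 starts.

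Pax8 start: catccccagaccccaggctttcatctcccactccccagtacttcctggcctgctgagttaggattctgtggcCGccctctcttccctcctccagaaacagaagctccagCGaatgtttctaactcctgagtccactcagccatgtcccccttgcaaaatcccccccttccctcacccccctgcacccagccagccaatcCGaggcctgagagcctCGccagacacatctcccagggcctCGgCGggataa

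Lhx1 and Osr1 are the other early genes. Lhx1 (Entrez 16869, chromosome 11, 84517975 to 84525534) encodes a LIM homeobox factor needed for the nephric duct and for nephron patterning. It had 18.0 and 32.2 CPM in FFPE and frozen kidney, 4.48 and 7.92 CPM in brain, 6.35 and 11.6 CPM in heart, and 11.0 and 23.4 CPM in liver. Kidney was highest and brain lowest in each preservation, with the order kidney, liver, heart, brain in both. The kidney and liver counting intervals overlapped within each preservation, and FFPE kidney lay below frozen liver. The log2 difference of kidney from the other organs was 1.34, with 1.38 in FFPE and 1.30 in frozen tissue, at percentile 98.7 of all genes. Against liver alone it was 0.58, and against brain 1.98.

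The Lhx1 start lies in a CG-rich stretch on the minus strand, with 31 CG in its 300 bases. At least that many are held by 10.6% of listed promoters. The Lhx1 start is printed (chr11:84525535-84525784) beside the Pax8 start to show how far these starts differ in CG content. How much of that CG is methylated is not given.

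Lhx1 start: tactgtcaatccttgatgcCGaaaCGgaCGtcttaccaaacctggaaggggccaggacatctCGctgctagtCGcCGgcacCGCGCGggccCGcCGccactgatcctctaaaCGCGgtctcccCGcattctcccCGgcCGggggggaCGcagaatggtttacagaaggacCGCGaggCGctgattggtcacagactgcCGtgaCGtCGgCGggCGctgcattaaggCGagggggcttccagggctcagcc

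Osr1 (Entrez 23967, chromosome 12, 9574442 to 9581500), a zinc finger factor and among the first markers of intermediate mesoderm, had few reads. Its signal was 8.98 and 15.5 CPM in FFPE and frozen kidney, 9.56 and 10.4 CPM in brain, 9.13 and 7.02 CPM in heart, and 2.65 and 8.76 CPM in liver. Frozen kidney had the most reads, 51, and FFPE liver the fewest, 7. Kidney ranked first in frozen tissue and the third in FFPE tissue, where kidney, brain and heart differed by less than counting error. The log2 difference of kidney from the others was 0.68, and it was 1.26 from liver alone and 0.24 from brain alone.

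Six2 (Entrez 20472, chromosome 17, 85662736 to 85688254) encodes the homeobox factor that keeps nephron progenitors from differentiating. It had 5 and 4 reads in FFPE and frozen kidney, 12 and 19 in brain, 10 and 11 in heart, and 5 and 2 in liver, which is 2.36 and 1.21 CPM in kidney and 0.584 to 7.92 CPM elsewhere. Liver and then kidney were the lowest organs in each preservation. The kidney intervals overlapped those of heart and liver, and in FFPE tissue that of brain, so most of the organ order of Six2 was not detectable at this depth. Its start held 37 CG in 300 bases, and 5.58% of listed promoters hold at least that many.

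Eya1 and Sall1 work with Six2 in the nephron progenitors. Eya1 (Entrez 14048, chromosome 1, 14168953 to 14311035), a phosphatase that Six2 and its relatives recruit as a cofactor, had 37.8 and 47.4 CPM in FFPE and frozen kidney, 66.9 and 80.0 CPM in brain, 56.8 and 67.4 CPM in heart, and 38.6 and 47.0 CPM in liver. Kidney and liver were alike within counting error and lay below both brain and both heart libraries. The frozen kidney and frozen liver intervals still overlapped that of FFPE heart, which began at 47.9 CPM. The log2 difference of kidney was -0.79 from brain, -0.54 from heart and -0.01 from liver. Sall1 (Entrez 58198, chromosome 8, 89027242 to 89044162), a zinc finger repressor, ranged least of the 9 genes, over 0.55 on the log2 scale. It had 154 and 189 CPM in FFPE and frozen kidney, against 197 and 156 CPM in brain, 220 and 169 CPM in heart, and 225 and 205 CPM in liver. Kidney was lowest in FFPE tissue, with a difference of -0.47, and second highest in frozen tissue, with 0.11, so its direction turned with the preservation.

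Wt1 (Entrez 22431, chromosome 2, 105126529 to 105173614) encodes the zinc finger factor of nephron progenitors and, in the adult, of podocytes, the cells of the kidney filter. It had 42.1 and 38.2 CPM in FFPE and frozen kidney, 39.4 and 43.4 CPM in brain, 34.5 and 32.3 CPM in heart, and 11.7 and 23.7 CPM in liver. Kidney, brain and heart overlapped in their counting intervals. Liver was the lowest organ in each preservation, and the kidney difference of 0.49 from the mean of the others was 1.26 from liver, 0.26 from heart and -0.04 from brain.

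Emx2 (Entrez 13797, chromosome 19, 59458690 to 59465357) encodes a homeobox factor of the ureteric bud and also of the developing cerebral cortex. It had 10 and 0 reads in FFPE and frozen kidney, 70 and 47 in brain, 13 and 24 in heart, and 0 and 9 in liver. Brain, at 20.9 and 19.6 CPM, was above all other libraries, whose highest was frozen heart at 8.42 CPM. The 0 reads, taken to allow 3 reads, allow up to 0.911 CPM in frozen kidney and 1.14 CPM in FFPE liver, and the plotted 95% intervals, which are two-sided, end higher, at 1.12 and 1.40 CPM. The fitted kidney difference of -2.42 combined 0.84 in FFPE and -5.68 in frozen tissue. Both values follow from a library at 0 reads, so no direction for kidney as an organ is given for Emx2. Its start on the plus strand held 26 CG in 300 bases, and 16.9% of promoters hold at least that many. It is printed (chr19:59458440-59458689) as the start of the gene with the widest range over libraries, 7.12 on the log2 scale. The low end of that range is set by the 0.5 read added to the 0 reads of frozen kidney.

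Emx2 start: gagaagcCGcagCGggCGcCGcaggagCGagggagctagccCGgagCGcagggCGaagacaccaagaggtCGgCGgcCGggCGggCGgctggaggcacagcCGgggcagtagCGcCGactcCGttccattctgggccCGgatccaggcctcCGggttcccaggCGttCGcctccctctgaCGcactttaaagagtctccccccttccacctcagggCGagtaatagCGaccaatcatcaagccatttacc

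**Figure D2:**
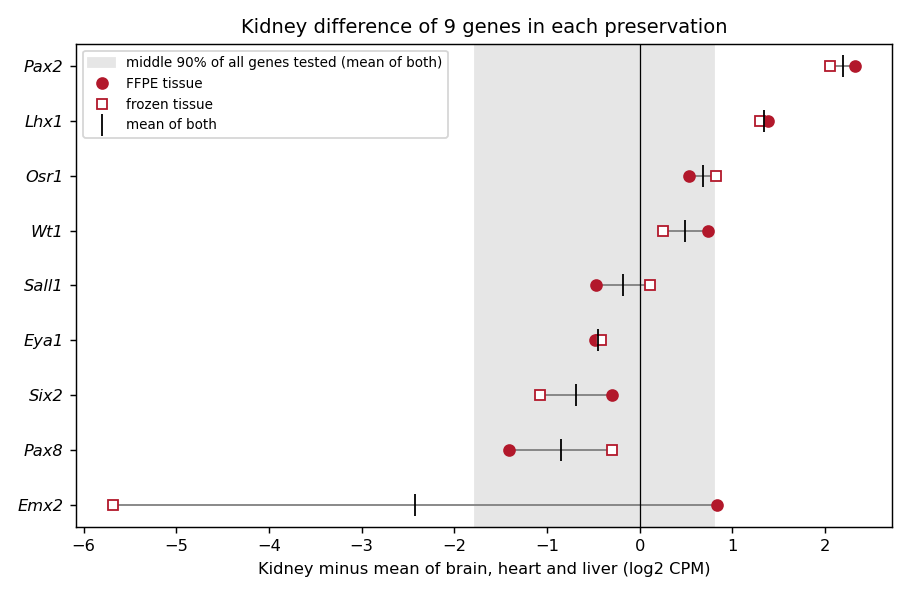
Difference of kidney from the mean of brain, heart and liver in log2 CPM for each of the 9 genes (rows), in FFPE tissue (filled circles) and frozen tissue (open squares), with the mean of both (vertical ticks); the grey band spans the middle 90% of that mean over all genes tested, from -1.78 to 0.81. Pax2, at 2.33 and 2.06, and Lhx1, at 1.38 and 1.30, lie right of the band in both preservations, while Emx2 spans from -5.68 to 0.84.

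The kidney difference had opposite signs in FFPE and frozen tissue for Sall1 and Emx2, and the same sign in both for the rest of the 9 genes. The same organ was highest in both preservations for 5 of the 9, where 50.3% of all genes do so. Kidney was that organ for Pax2 and Lhx1 (5.98% of all genes) and brain for Eya1 and Emx2 (21.7%), while liver held the place for Sall1. The same organ was lowest for 5 of the 9 (45.8% of all genes): liver for Pax2, Six2 and Wt1 (16.1%), kidney for Pax8 (7.05%) and brain for Lhx1. Over the 8 libraries, Pax2 and Pax8 moved in opposite directions (Pearson's r = -0.714), and so did Lhx1 and Six2 (r = -0.743), while Osr1 and Wt1 moved together (r = 0.875). These pairs were picked as the most negative and the most positive among the 9 genes, and Six2 had only 2 to 19 reads per library. The correlations describe 8 libraries that share organs and depth.

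FFPE against frozen tissue is a comparison that the choice of genes did not use, so it was tested. It was fitted with limma over all genes with organ as a term, which leaves the change of the preservation difference between organs as its error. Of all genes, 0.62% were higher and 0.735% lower in FFPE tissue. Of the 9 genes 0 passed, with 1 at an unadjusted p under 0.05, which 10.7% of all genes reached. That gene was Lhx1, whose signal was lower in FFPE in 4 of 4 organs, by -0.83 in kidney, -0.81 in brain, -0.84 in heart and -1.07 in liver. Its estimate was -0.89 ± 0.32 (SE, log2 scale; limma, unadjusted p = 0.0127, Benjamini-Hochberg adjusted p = 0.284), which does not pass over all genes. Eya1 was also lower in FFPE in 4 of 4 organs (estimate -0.28, 95% interval -0.59 to 0.04, limma adjusted p = 0.534). All genes lower in all 4 organs made up 8.83%, and 0 of the 9 were higher in all 4 (10.1% of all genes). The median over the 9 genes was -0.23, against 0.02 over all genes tested.

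For the other 7 genes the preservation difference changed sign between organs. Sall1 had the narrowest interval, -0.13 to 0.41 on the log2 scale, and Emx2 the widest, -1.96 to 2.24. Pax2 was estimated at -0.12 (-0.60 to 0.37), with the largest difference in brain (-0.62). For Pax8, kidney alone moved by over 1 (-1.09), and for Wt1 liver moved most (-0.997).

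**Figure D3:**
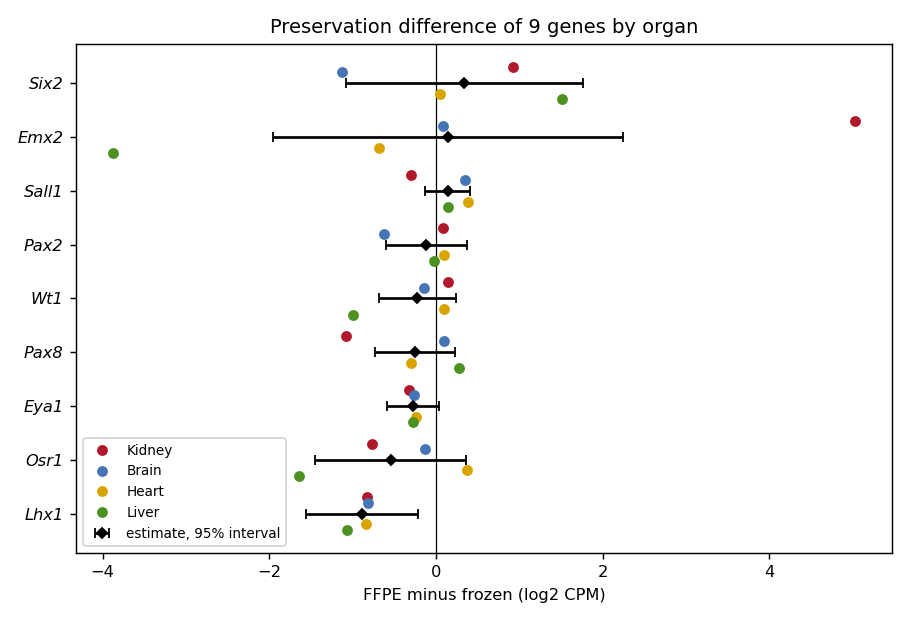
FFPE minus frozen signal in log2 CPM for each of the 9 genes (rows), by organ (coloured dots) and as the limma estimate with its 95% interval (black diamonds and bars). The 4 organs lie together left of 0 for Lhx1, from -1.07 to -0.81, and apart for Emx2, from -3.87 in liver to 5.03 in kidney.

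The genes next to the 9 are described beside them. Genes that overlap one of them or lie within 5 kb and are in the table numbered 7, and 0 of them passed in kidney against the other organs (limma; 2 had an unadjusted p under 0.05). Over all genes 0.897% passed as higher and 0.566% as lower, and 18.6% had an unadjusted p under 0.05. Wt1os, a noncoding RNA gene 19 bases from Wt1, had 13.7 and 22.2 CPM in FFPE and frozen kidney, 40.6 and 49.6 CPM in brain, 24.6 and 30.5 CPM in heart, and 20.8 and 18.1 CPM in liver. Its kidney difference was -0.72 ± 0.26 (SE; limma adjusted p = 0.149), of the opposite sign to Wt1. Emx2os, the antisense gene 55 bases from Emx2, had 109 and 110 reads in FFPE and frozen kidney and 64 to 188 in the other libraries. Its kidney difference was 0.33 ± 0.23 (SE; limma adjusted p = 0.478).

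Aatf, a gene of transcription control that lies 4391 bases from Lhx1, had 57.2 and 55.2 CPM in FFPE and frozen kidney, against 26.9 to 40.1 CPM in the other 6 libraries. Its kidney difference was 0.68 ± 0.20 (SE; limma adjusted p = 0.0854). Lhx1os, 126 bases from Lhx1 on its other side, varied from 6 to 54 reads over the libraries, with a difference of 0.08. Inside Pax2, the noncoding gene 1700039E22Rik had 28 and 21 reads in FFPE and frozen kidney and 3 to 19 in the other libraries (difference 0.97, limma adjusted p = 0.425). Gm3134, which overlaps Sall1, and 1700022H16Rik, near Osr1, had at most 31 and 9 reads. How reads in an overlap were assigned, and whether strand was used, is not stated, so overlapping pairs share an unknown number of reads.

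Relatives of the 9 genes were read from a list of 27 in the same families. It too was drawn up with earlier results of these data known, so its counts and p-values are no independent support. In kidney against the mean of the other organs 1 relative was higher and 0 lower, where 0.897% of all genes were higher and 0.566% lower (limma). The gene was Osr2, the paralogue of Osr1, with 28.4 and 26.4 CPM in FFPE and frozen kidney, 0.597 and 1.67 CPM in brain, 3.97 and 4.21 CPM in heart, and 1.14 and 0.584 CPM in liver. Both kidney libraries stood above all others, at 60 and 87 reads against 2 to 12. The log2 difference was 4.01 ± 0.70 (SE; limma adjusted p = 0.0122), against 0.68 for Osr1. The call was lost without frozen kidney, FFPE heart or frozen heart, with adjusted p up to 0.159 over the alternatives.

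Among the other paired-box genes the difference ran from -0.60 (Pax1, 32 reads in all) to 0.04 (Pax5), so over both preservations Pax2 lay above and Pax8 below them. Pax2 was also the highest in each preservation, but Pax8 was the lowest in FFPE tissue only (-1.41), and in frozen tissue Pax1, Pax7 and Pax9 lay below its -0.30. Among the other LIM homeobox genes it ran from -2.15 (Lhx5, with 0 reads in frozen kidney) to 0.54 (Lhx6), below the 1.34 of Lhx1. Among relatives of Six2, Six3 had 9 and 8 reads in FFPE and frozen kidney and a difference of -1.19, which did not pass (limma). The other Eya genes lay between -0.21 and 0.07.

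Other genes of kidney development were read from a list of 85: 40 regulators, 35 signals and receptors and 10 podocyte genes. This list was drawn up with earlier results of these data known, so its counts and p-values are no independent support. In kidney 4 of the 85 were higher and 1 lower, with a median log2 difference of 0.08 against -0.02 over all genes. The shares of all genes were 0.897% higher and 0.566% lower. An unadjusted p under 0.05 (limma) was reached by 26 of the 85, where 18.6% of all genes reached it. These included 16 of the 40 regulators and 8 of the 35 signals and receptors. Among regulators 3 of 40 were higher and 0 lower. Hoxa11, a homeobox gene of the kidney-forming mesoderm, had 84 and 102 reads in FFPE and frozen kidney, 6 and 5 in heart and 0 in all 4 brain and liver libraries (limma adjusted p = 0.00444). Its level was 39.7 and 31.0 CPM in kidney and at most 2.38 CPM elsewhere. Foxc1, a forkhead factor of embryonic mesoderm, was 3.53-fold higher (1.82 ± 0.30, SE; limma adjusted p = 0.0103), with 47.7 and 67.1 CPM in FFPE and frozen kidney and 9.86 to 34.5 CPM in the others. That call was lost without frozen kidney or frozen heart.

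Of the signals and receptors 1 of 35 was higher and 1 lower (0.897% and 0.566% of all genes). Wnt7b, a ligand of the collecting duct, passed as higher (0.94 ± 0.21, SE; limma adjusted p = 0.0379), although FFPE kidney, at 113 CPM, lay below both liver libraries, at 144 and 125 CPM. The difference was 1.53 without FFPE kidney and 0.34 without frozen kidney. Its call was lost without frozen kidney (limma adjusted p = 0.578, the highest of its alternatives), frozen brain, or any 1 heart or liver library, and without the filter on low values. Bmp4, a ligand that restrains ureteric bud outgrowth, was 2.01-fold lower (-1.004 ± 0.17, limma adjusted p = 0.0113), with 28.8 and 35.5 CPM in FFPE and frozen kidney and 49.0 to 87.6 CPM in the others, and lost its call without frozen kidney or frozen heart. Podocyte genes passed for 0 of 10 (limma; 2 at an unadjusted p under 0.05, as 18.6% of all genes), with a median of 0.02. When the variance was not allowed to vary with mean signal, 0 genes of the table passed in kidney, so the calls of Hoxa11, Foxc1, Wnt7b, Bmp4 and Osr2 all depend on that setting. With array quality weights Wnt7b, Bmp4 and Osr2 also lost theirs. In FFPE against frozen tissue 0 of the 85 genes (9 at an unadjusted p under 0.05, which 10.7% of all genes reached) and 0 of the 27 relatives (3) passed with limma.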

How the data were processed

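MeDIP-seq values of 8 organ and preservation columns were used. Per the submitters' processing notes, the reads were processed with Bowtie2, featureCounts and limma on mm10. Not given in the sources used here are versions, the counted feature, strand and any pooling of replicates. The authors deposited log2 values of CPM, which step as limma's voom writes them, with 0.5 read added. With a tolerance of 1e-04, 100% of values gave whole reads. CPM here is recovered reads over the authors' scaled library size. Intervals are exact Poisson 95% intervals, and a count of 0 allows 3 reads. Neither covers more than counting error, and PCR duplicates would make it too small.

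With limma 3.58.1 in R 4.3.3, a model of organ plus preservation was fitted to the deposited log2 values of genes that reached 1 CPM in 2 or more libraries. The fit had 5 coefficients, 3 residual and 13.1 prior degrees of freedom and a variance trend. It was tested on simulated data in which the preservation difference did not change between organs. That test therefore does not cover the error of the fit to these data. p-values were adjusted by Benjamini-Hochberg over 25982 genes at 0.05. With 1 library per group, the error is the interaction of organ and preservation, and the labels do not say that replicates are separate animals.

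The members, lists and tests were chosen with earlier results of these data known. Named are all 9 genes, table genes overlapping them or within 5 kb, up to 3 called genes per list and direction with the smallest p, and the most similar gene by Pearson's r among 11790 genes. Some genes of the lists are counted but not reported here by name. Positions and promoters come from RefSeq on GRCm38.p6, the assembly behind mm10. Annotation matched 25275 genes by Entrez ID, and promoters were listed for 6 of the 9 genes (all but Osr1, Eya1 and Wt1).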

Additional observations from a re-analysis of the deposited data

How the results depend on the processing

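Pax2, Lhx1, Osr1, Wt1, Six2, Pax8 and Eya1 kept the direction of their kidney difference under quantile normalization, median centring, a larger pseudocount, with any 1 library left out and within each preservation; Pax2 ran from 2.06 to 2.33, Lhx1 from 1.21 to 1.505, and Pax8 from -1.41 to -0.30. Sall1 turned to 0.11 without FFPE kidney and within frozen tissue (range with any 1 library left out -0.473 to 0.111), and Emx2 to 0.84 without frozen kidney and within FFPE tissue (range -5.681 to 0.838). The median of the 9 turned to 0.54 in the same 2 settings as Emx2 and to 0.11 in those of Sall1, and ran from -0.23 to 0.54 with any 1 library left out. Genes with both kidney libraries above all others numbered 2 under centring, which added Wt1, and 1 to 3 with any 1 library left out; those below numbered 1 to 3.

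In FFPE against frozen tissue 0 of the 9 genes passed under any alternative. The estimate turned for Emx2 with array quality weights (-0.49) and without either kidney library (-1.49; with any 1 library left out -1.49 to 1.48), for Pax2 without either brain library (0.055; range -0.187 to 0.055), for Pax8 without either kidney library (0.025; range -0.429 to 0.025), and without either liver library for Six2 (-0.049; range -0.049 to 0.829) and Wt1 (0.033; range -0.346 to 0.033). Over all genes, higher calls numbered 297 with array quality weights, 15 without the variance trend and 85 to 219 with any 1 library left out, and lower calls 287, 24 and 82 to 247.

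In kidney, higher calls over all genes numbered 107 without the filter, 443 with 5 reads added, 44 with array quality weights, 0 without the variance trend (4843 genes had an unadjusted p under 0.05 with it) and 20 to 1513 with any 1 library left out; lower calls numbered 51 without the filter, 7 with weights, 0 without the trend and 3 to 2251 with any 1 library left out. Of the 85 development genes, higher calls numbered 7 with 5 reads added, 2 with weights, 0 without the trend and 1 to 13 with any 1 library left out, and lower calls 2 under quantile normalization or 5 reads added, 0 with weights or without the trend and 0 to 8. Of the 27 relatives, higher calls numbered 0 with weights or without the trend and 0 to 2 with any 1 library left out, and lower calls 0 to 2. Hoxa11 kept its call in 13 of 14 alternatives, Foxc1 in 11, Bmp4 in 10, Osr2 in 9 and Wnt7b in 5. The cause of these changes was not tested. No paired analysis was possible because the columns carry no replicate numbers, beyond the pairing of FFPE and frozen columns by organ that the fit already holds.

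Depth limited Six2, Emx2 and Osr1 most, with 68, 173 and 207 reads over all libraries.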

Other observations

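Among 11790 genes with at least median signal, the gene whose 8 values ran most like those of Pax2 was Chst3 (Pearson's r = 0.952), a sulfotransferase of chondroitin chains. The closest to Pax8 was Pkd2l1 (r = 0.982), a channel protein of the polycystin family, to Lhx1 Lamtor3 (r = 0.972), a lysosomal scaffold, and to Eya1 Kif12 (r = 0.981), a kinesin. For Osr1 it was Smarca1 (r = 0.989), a chromatin remodeller, for Six2 Slc1a2 (r = 0.971), a glutamate transporter, for Sall1 Galnt7 (r = 0.945), for Wt1 Ptchd3 (r = 0.990) and for Emx2 Tbc1d4 (r = 0.992). The kidney difference of Chst3 was 0.63 and that of Kif12 -1.02. Each is the highest of many correlations over only 8 libraries that share organs and depth. Emx2 had 0 reads in frozen kidney and FFPE liver, where the 0.5 read added sets its value, so its r leans on these libraries.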
